A study of Neodesmus pupukensis with 4 samples.

Results

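The transient sequences are assembled transcripts of a green microalga that were higher after 45 h of culture than after 14 h and, on the deposited RPKM scale, had come back near their 14 h level by 57 h and 88 h. They were chosen by their own expression values in all 4 libraries of the study. A member needed an average of 50 reads or more per library, an RPKM at 45 h of at least 2 times that at 14 h, and RPKM values at 57 h and at 88 h that were each more than 0.5 and less than 2 times that at 14 h. RPKM is the number of reads on a sequence, scaled by its length and by the library total. Of the 14905 sequences in the files, 11089 passed the read minimum and 312 met the whole rule, or 2.09% of all sequences.

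The study followed strain UTEX2341, given as Neodesmus pupukensis in the sample labels and as Chlorella minutissima in the series' design text, through fed-batch growth in shaken flasks. Whole cells were collected by centrifuge after 14, 45, 57 and 88 h, and the labels name no genotype or added agent, so that culture time is the labelled difference between the groups. Each time is represented by 1 library of total RNA, so no value below has a replicate error, no test between times was possible, and the intervals given cover counting error only.

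Green microalgae in flask culture can pass from dividing, nutrient-replete cells to dense cultures in which nutrients and light per cell run down. In that passage many species slow their division and store carbon as starch or as triacylglycerol, the neutral lipid for which oleaginous strains are studied. The flasks here were fed-batch, and whether nutrients ran down in them was not examined. Transcript levels are seen at the harvested times alone, and a peak between harvests is not seen. The stated library totals were 12495251 reads (14 h), 11874560 (45 h), 12130407 (57 h) and 12077745 (88 h). None of the 14905 identifiers is given a name, a function or a genome position by the files, so roles cannot be given for any transient sequence and no pathway list could be counted. For this reason 4 sequences are named by identifier and the others are described by rank, length and component. A component is the set of sequences whose identifiers differ in the seq part alone, a form that the assembler Trinity uses for sequences it takes to be variants of 1 locus.

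The 312 sequences belonged to 178 of the 6216 components. Their median RPKM was 7.17 (14 h), 21.9 (45 h), 6.52 (57 h) and 7.54 (88 h). With 1 member per component it was 8.67 (14 h), 25 (45 h), 8.33 (57 h) and 9.04 (88 h). Over the 11089 sequences that passed the read minimum, the median RPKM was 19.6 (14 h), 19.6 (45 h), 9.9 (57 h) and 9.87 (88 h). The transient sequences therefore sat below the typical sequence at 14 h and slightly above it at 45 h. A rule on the ratio of 45 h to 14 h itself favours this. The 762 other sequences at least 2 times as high at 45 h as at 14 h had medians of 9.53 (14 h) and 27.6 (45 h). In whole cultures, fewer cells that hold a transcript and less of it per cell cannot be told apart. At 45 h, 64 of the 312 transient sequences were under 10 RPKM and 32 were at or above 100 RPKM. The median transient sequence was covered by 193 reads (14 h), 498 (45 h), 156 (57 h) and 163 (88 h).

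The ratio of 45 h to 14 h, which the rule used, had a median of 1.38 over the members on the log2 scale, or 2.6 times. Its quartiles were 1.15 and 1.82 and its highest value 3.22, all as log2. The background share of sequences at least 2 times as high at 45 h as at 14 h was 9.69%, or 1074 of 11089. At least 3 times the 14 h level was reached by 105 transient sequences, against a background of 3.3%, and at least 4 times by 41, against 1.35%. Since the rule picked on this ratio, nothing is read from these shares. On the deposited scale every one of the 312 was highest at 45 h, which the rule's limits impose. With edgeR's TMM library sizes, a scaling that holds most sequences level on average and raises the late values relative to 14 h and 45 h, 266 were highest at 45 h. At the late times the median ratio to 14 h was 0.91 at 57 h and 0.989 at 88 h, while over all sequences with enough reads it was 0.579 and 0.555.

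**Figure D1:**
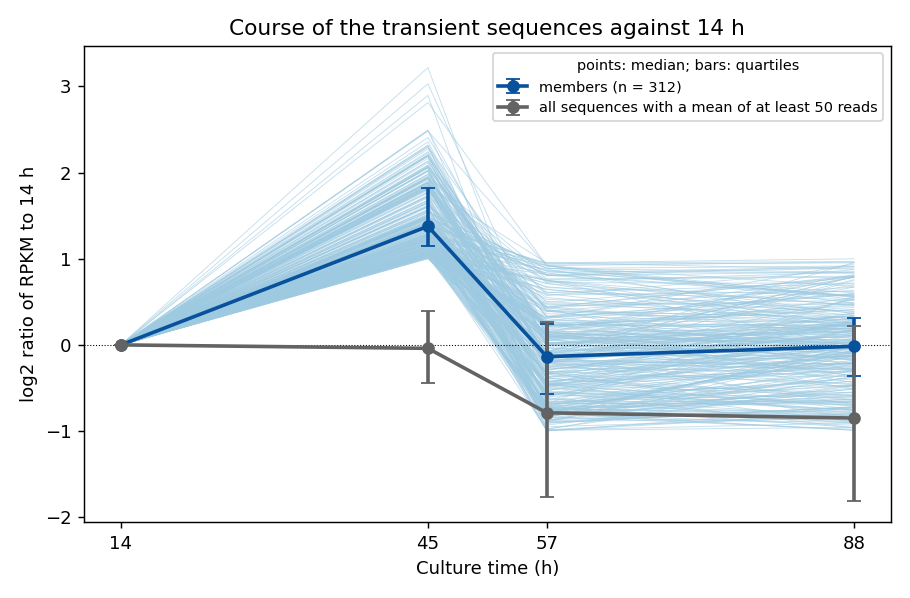
Log2 ratio of RPKM to the 14 h library (vertical axis) against culture time in hours for the 312 transient sequences (thin lines), with the medians and quartiles of these and of the 11089 sequences that passed the read minimum (points and bars). The members peak at a median of 1.38 at 45 h and lie at -0.14 at 57 h and -0.02 at 88 h, within the limits of -1 and 1 that the rule sets, while the median of all sequences lies at -0.79 and -0.85 at the late times. With TMM library sizes the members' late medians are 0.56 and 0.75.

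On the deposited scale the late medians lay near 14 h, whereas on the TMM scale they lay above it. The rule limited both late ratios on the deposited scale, so the values here describe the set and are no test of a return. By 57 h on the deposited scale the median transient sequence had lost 104% of the amount it had gained by 45 h, with quartiles of 90.1% and 119%, and 183 of the 312 had lost at least all of it. At 57 h 126 of them lay within 1.25-fold of their 14 h level, at 88 h 151 did, and 88 did so at both times. By side, there were 137 sequences below their 14 h level at both late times and 108 above it at both, while with TMM these counts were 19 and 247. Another 46 were below at 57 h and above at 88 h, and 21 were above at 57 h and below at 88 h. On the deposited scale 108 sequences had their lowest value of the course at 14 h, 126 at 57 h and 78 at 88 h.

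Counting error and the choice of scale both limit how exactly the return can be stated. On the deposited scale the 95% exact interval of the ratio of 57 h to 14 h held 1 for 123 transient sequences, lay above 1 for 79 and lay below 1 for 110. For 88 h against 14 h these counts were 146, 78 and 88. With TMM the interval held 1 for 118, lay above 1 for 192 and lay below 1 for 2 at 57 h, and at 88 h the counts were 61, 247 and 4. The side of 14 h on which a late value lies is thus set by the scale for many of the sequences. All 312 had an interval of the 45 h ratio above 1, and for 194 the whole interval lay at or above 2. For 123 sequences, in 75 components, the intervals of all 3 ratios lay inside the limits of the rule on the deposited scale.

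The highest ratios of 45 h to 14 h belonged to 2 sequences that are each alone in their component. The sequence comp2302_c0_seq1, of 5290 bases, had an RPKM of 3.48 (14 h), 32.4 (45 h), 2.51 (57 h) and 2.82 (88 h). Its reads numbered 230, 2034, 161 and 180 in the same order of times. The single high library is that of 45 h, at 9.31 times the 14 h level (95% counting interval 8.12 to 10.7), which TMM left at 9.31. Its late levels were 0.721 (0.586 to 0.886) and 0.81 (0.662 to 0.988) times that at 14 h on the deposited scale. With TMM they were 1.17 (0.951 to 1.44) and 1.38 (1.13 to 1.69) times. The 88 h level thus changed side beyond counting error, while at 57 h the TMM interval held 1. The sequence comp643_c0_seq1, of 2422 bases, had an RPKM of 19 (14 h), 155 (45 h), 18.9 (57 h) and 17.9 (88 h). Its 45 h level was 8.17 times that at 14 h (7.49 to 8.92). On the deposited scale the 57 h level was 0.993 times that at 14 h (0.882 to 1.12) and the 88 h level 0.939 times (0.833 to 1.06), both within counting error of the start. With TMM they were 1.61 (1.43 to 1.81) and 1.6 (1.42 to 1.81) times, above it.

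The lowest ratios of 57 h to 45 h outside those components belonged to 2 further sequences. The sequence comp756_c1_seq1, of 1359 bases, had an RPKM of 5.95 (14 h), 44.2 (45 h), 3.22 (57 h) and 3.29 (88 h). Its 57 h level was 0.0727 times that at 45 h (0.0539 to 0.0961), and its late levels, on 53 and 54 reads, were 0.541 and 0.553 times that at 14 h, close to the lower limit of the rule. With TMM the late levels were 0.878 (0.617 to 1.24) and 0.943 (0.665 to 1.32) times that at 14 h. The sequence comp3184_c0_seq2, of 1649 bases, had an RPKM of 8.59 (14 h), 48.4 (45 h), 5.35 (57 h) and 12.7 (88 h). It was higher again at 88 h, at 2.37 times 57 h (1.88 to 2.99), or 2.48 times with TMM. Against 14 h it was at 0.623 times (0.485 to 0.796) at 57 h and 1.47 times (1.21 to 1.8) at 88 h on the deposited scale. With TMM it was at 1.01 times (0.788 to 1.29) and 2.51 times (2.06 to 3.06), no longer below 14 h at 57 h and past the limit of the rule at 88 h.

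The 3 most abundant transient sequences were at the upper end of the transcriptome at every harvest and highest at 45 h. Each exceeded the 95th percentile of RPKM over all sequences with enough reads at all times. That percentile was 162 (14 h), 162 (45 h), 149 (57 h) and 135 (88 h). Ranked by RPKM at 45 h, the first was a sequence of 2813 bases with an RPKM of 640.5 (14 h), 2598 (45 h), 406 (57 h) and 408 (88 h). The second, of 817 bases, had an RPKM of 709.8 (14 h), 2361 (45 h), 423 (57 h) and 415 (88 h). In both, the late libraries nearly equalled each other. At 57 h they were at 0.634 and 0.596 times the 14 h level on the deposited scale, and at 1.03 (1.01 to 1.05) and 0.968 (0.931 to 1.005) times with TMM. The third, of 1640 bases, had an RPKM of 509.9 (14 h), 1083 (45 h), 443 (57 h) and 369.9 (88 h), a smaller peak of 2.12 times the 14 h level (2.08 to 2.18). These 3 were among the 100 sequences of highest RPKM at 45 h, and no transient sequence was among the 100 highest at 14, 57 or 88 h. Among the 1000 highest there were 12 transient sequences (14 h), 32 (45 h), 11 (57 h) and 13 (88 h).

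The late levels of some other abundant members were higher relative to 14 h. The ninth in rank, of 5087 bases, had an RPKM of 40.7 (14 h), 285.7 (45 h), 77 (57 h) and 79.2 (88 h). Its late levels, 1.89 and 1.95 times that at 14 h (1.8 to 1.99 and 1.85 to 2.04), stood just under the upper limit of the rule, and with TMM they were 3.07 and 3.32 times, past it. Its 45 h peak was 7.02 times the 14 h level (6.74 to 7.32), which placed it at rank 4 by that ratio. The eighth in rank, of 1241 bases, kept 0.556 times its 45 h level at 57 h (0.53 to 0.584), the highest such ratio among the 10 most abundant, and 0.903 times (0.86 to 0.948) with TMM.

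**Figure D2:**
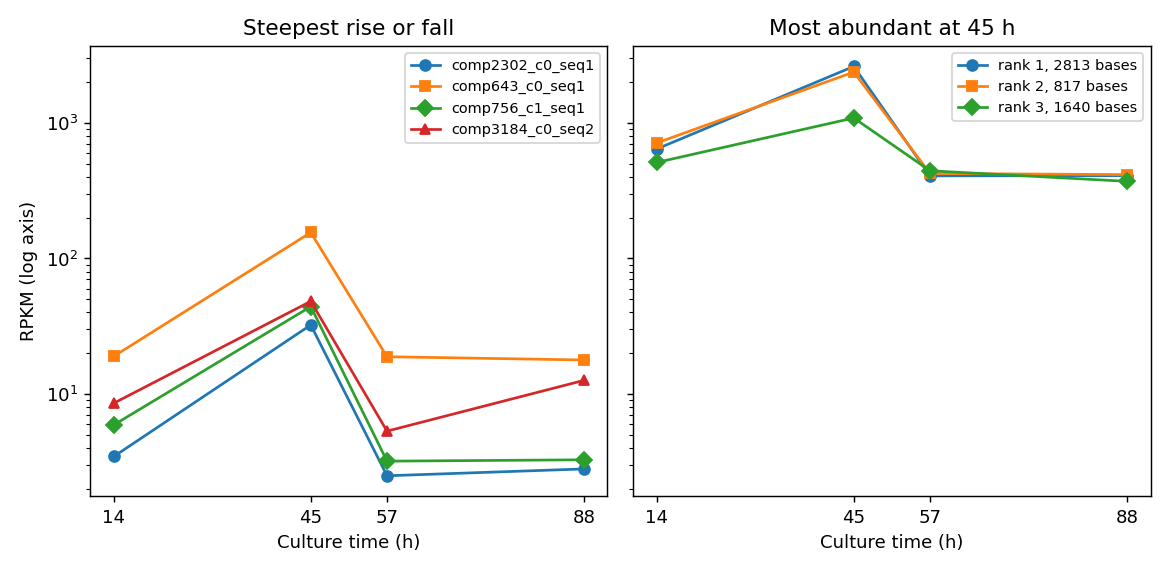
RPKM on a log axis against culture time in hours for the 4 named sequences (left) and the 3 transient sequences of highest RPKM at 45 h (right), 1 library per time. All 7 are highest at 45 h on this scale, and comp3184_c0_seq2 is the one that is more than 2 times higher at 88 h than at 57 h.

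Together the transient sequences held 201871 reads (14 h), 543173 (45 h), 180975 (57 h) and 177958 (88 h). As a share of all reads counted on sequences this was 1.2% (14 h), 3.35% (45 h), 1.15% (57 h) and 1.16% (88 h). The Clopper-Pearson 95% bounds were 1.19 and 1.2% for the 14 h library, 3.35 and 3.36% for that of 45 h, and 1.15 and 1.16% for each late library. The most abundant member alone supplied 11.2% (14 h), 16% (45 h), 7.65% (57 h) and 7.78% (88 h) of these reads. Reads may have been counted on several sequences of a component. The 1 member of most reads in each of the 178 components held 0.93% (14 h), 2.61% (45 h), 0.878% (57 h) and 0.864% (88 h) of all counted reads. That total still held every variant, so these shares are not corrected for repeated counting.

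The depth of the return followed the size of the peak, as limits on the late ratios require. The 207 sequences with a 45 h level of 2 to 3 times that at 14 h had a median ratio of 57 h to 45 h of 0.4. The 64 sequences from 3 to 4 times had a median of 0.243 and the 41 of 4 times or more one of 0.194. Against 14 h, the same 3 classes had medians of 0.923, 0.876 and 0.914 at 57 h and 0.97, 1.05 and 1.09 at 88 h. Median RPKM values at 14 h were 8.19, 6.77 and 4.9 in the 3 classes, an order to which the division by a ratio over 14 h itself leads.

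At 57 h 250 of the 312 transient sequences were at most 0.5 times their 45 h level, where the background share was 43.2%. At most 0.25 times was reached by 100 of them, against 18.9%. The rule used both times, so these shares describe the set and are no test of it. The other 62 sequences, in 43 components, kept more than 0.5 times their 45 h level at 57 h. They were the shallower courses, with a median log2 ratio to 14 h of 1.14 at 45 h, 0.64 at 57 h and 0.37 at 88 h. In the 250 with the deeper return the same medians were 1.44, -0.31 and -0.09. From 57 h to 88 h the 62 had a median log2 ratio of -0.24 and the 250 one of 0.17, an approach that the division by the 57 h value and the limits at 88 h themselves favour, so nothing is read from it. Of the 62, 15 came to at most 0.5 times their 45 h level by 88 h.

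The rule also held the ratio of 88 h to 57 h within bounds, so its values describe the set alone. On the log2 scale the median of this ratio was 0.08 (quartiles -0.14 and 0.34), and over all sequences with enough reads it was -0.07 (quartiles -0.25 and 0.15). At 88 h 185 of the 312 lay above their 57 h level, or 59.3%, against a background of 41.4%, and with 1 member per component 96 of 178 did. With TMM 215 of the 312 did, against 50.5% of all. The counting interval of this ratio lay above 1 for 78 transient sequences and below 1 for 40. At least 2 times higher at 88 h than at 57 h were 3 transient sequences, or 0.962%, against 1.62% of all, and none was at most 0.5 times as high, against 0.325%. These 3 are the whole component of comp3184_c0_seq2, so they are 1 course and not 3. They had 88 h levels of 2.06, 2.37 and 2.01 times those at 57 h, the last on 66 and 33 reads.

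The 312 were 1 of several courses that began with a high 45 h level. Of the 1074 sequences at least 2 times as high at 45 h as at 14 h, 305 stayed at 2 times or more at both 57 h and 88 h, and 321 were at 0.5 times or less at both. The transient sequences made up 29.1% of the 1074, and 136 had a mixed late course. The median log2 ratio of 45 h to 14 h was 1.38 in the transient sequences and 1.41 in the other 762. The median RPKM at 14 h was 7.17 in the transient sequences and 9.53 in the other 762. With 1 member per component the first was 8.67, while the 762 were not reduced in this way. Neither difference was tested.

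**Figure D3:**
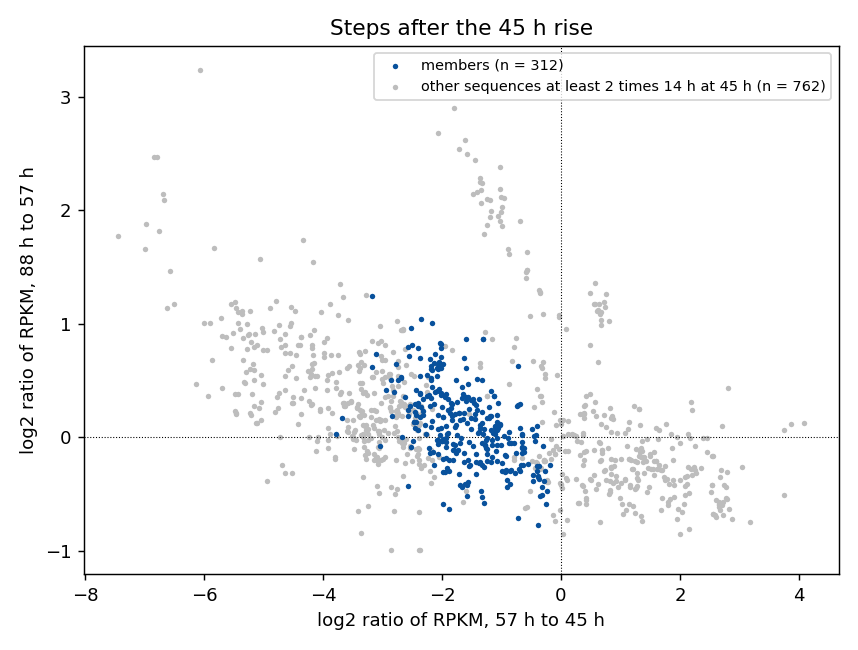
Log2 ratio of RPKM of 57 h to 45 h (horizontal axis) and of 88 h to 57 h (vertical axis) for the 1074 sequences at least 2 times as high at 45 h as at 14 h, with the 312 transient sequences in dark blue and the other 762 in grey. The transient sequences lie between -3.78 and -0.19 on the horizontal axis, where the rule keeps 57 h under 45 h but sets no lower end. On the vertical axis they lie between -0.77 and 1.24, inside bounds that the rule sets on both sides.

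Sequence length and component size were not used by the rule. The median length was 2213.5 bases among the transient sequences (quartiles 1217.5 and 3575.75) and 2412 bases among all with enough reads (1379 and 4073). Taking 1 member per component gave a median of 1976.5 bases. Sequences alone in their component made up 25% of the transient ones, or 78, and 24.3% of all. These values describe the sets and were not tested, because sequences of 1 component are not independent.

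The 312 sequences amount to fewer independent courses. In 108 components there was a single member and in 70 there were 2 or more, up to 18. Of the 204 members that share a component with another member, 111 had counts within 10% of another member's in all 4 libraries. Among members of 1 component the standard deviation of the log2 ratio of 45 h to 14 h had a median of 0.05, against 0.44 over 1 member per component. For 57 h against 14 h these values were 0.08 and 0.55.

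The component with the most transient sequences held 18 sequences, all of them members, 7816 to 9924 bases long and of very low abundance. Their RPKM was 0.364 to 0.651 (14 h), 1.01 to 1.43 (45 h), 0.327 to 0.513 (57 h) and 0.393 to 0.65 (88 h). Each rested on 36 to 80 reads at 14 h, and by their identifiers the 18 count as 1 component of the 178. The next component made of members alone had 8 sequences of 3123 to 3560 bases, with an RPKM of 8.95 to 11.9 (14 h), 34.8 to 43.4 (45 h), 10 to 11.1 (57 h) and 11 to 14.5 (88 h). In both, the 45 h range lies above the ranges of the other 3 libraries on the deposited scale.

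Of the 178 components, 78 had 1 sequence, 4 had several of which 1 passed the read minimum, and 51 had 2 or more that passed, all of them members. The remaining 45 also held sequences with enough reads that were not members, 200 in all. The median ratio of these 200 to 14 h was 1.45 at 45 h, 0.951 at 57 h and 0.916 at 88 h. At 45 h 36 of them were at least 2 times as high as at 14 h but outside the late limits, 114 were at 1 to 2 times and 50 were below their 14 h level. The whole counting interval of the 45 h ratio lay below 1 for 27 of these relatives, in 12 components.

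In those 12 components, variants assigned to 1 locus thus differed in direction at 45 h. The widest difference was in a component of 4 sequences. Its member, of 4013 bases, had an RPKM of 11 (14 h), 50.8 (45 h), 7.62 (57 h) and 10.8 (88 h), a 45 h ratio of 4.62 (4.21 to 5.08). A relative of 2674 bases had an RPKM of 34.5 (14 h), 19.7 (45 h), 11.2 (57 h) and 15.8 (88 h), a 45 h ratio of 0.569 (0.515 to 0.628). The member was thus the lower of this pair at 14 h and the higher at 45 h. The other relatives were also higher at 45 h than at 14 h, at 1.9995 and 1.74 times. The first of these stood above the member at 45 h, with 65.3 RPKM.

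In another component, 5 of the 6 sequences passed the read minimum. Its 3 members, of 5617 to 7071 bases, had 45 h ratios of 2.79 to 4.07, and its 2 other sequences, of 1676 and 1932 bases, ratios of 0.663 and 0.658. In a component with 9 sequences over the minimum, the 2 members had an RPKM of 6.51 and 8.75 at 14 h and of 32.1 and 39.3 at 45 h, while the other 7 had 45 h ratios of 0.821 to 1.22. At 14 h the 7 were the more abundant, with 24.8 to 57.4 RPKM. At 45 h their range of 21.8 to 57.1 RPKM took in the 2 members. The sources used here do not give how reads matching several variants were assigned, and the part of that step in these differences was not tested.

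**Figure D4:**
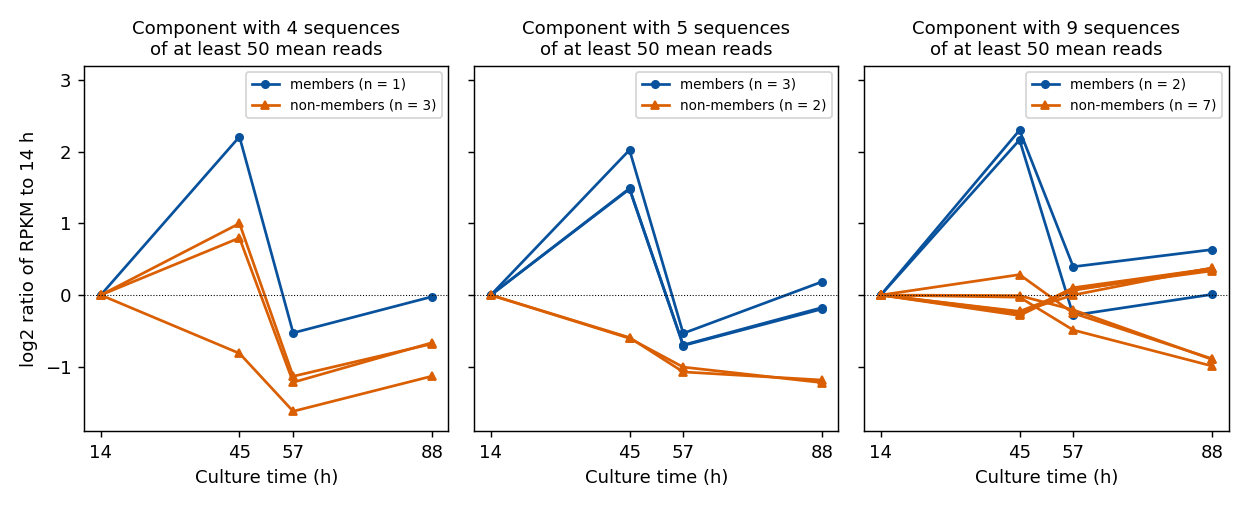
Log2 ratio of RPKM to the 14 h library against culture time in hours, with members as blue circles and other sequences of the same component as orange triangles. The 3 components are those whose sequences differed most in the ratio of 45 h to 14 h. They were ranked among components with both a member and another sequence with enough reads. In each panel the members peak at 45 h while at least 1 relative lies below 0 there, the 14 h level.

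The edges of the rule cut through a continuous range of values. Just inside, the lowest ratio of 45 h to 14 h was 2.001, and just outside the highest with the same late course was 1.999. There were 74 transient sequences under 2.2, and 100 sequences from 1.8 to below 2 that met the rest of the rule. The 57 h ratio reached 1.94 inside and started at 2.05 outside above, and was 0.50004 inside and 0.497 outside below. For 88 h the same 4 values were 1.998, 2.004, 0.503 and 0.499. A component of 18 sequences lay across these edges, with 8 members whose 57 h level was 0.50004 to 0.68 times that at 14 h and 10 others at 0.162 to 0.674 times.

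Whether these sequences came back to their start depends on the scale that is used. On the deposited scale, which divides by the stated total, all sequences with enough reads had medians of -0.79 at 57 h and -0.85 at 88 h as log2 ratios to 14 h. With TMM library sizes those medians were -0.09 and -0.08. The medians of the 312 transient sequences on that scale were 1.38 at 45 h, 0.56 at 57 h and 0.75 at 88 h. So the 45 h level kept its ratio to 14 h, while the late levels stood above the start. The fall from 45 h was smaller, with a median log2 ratio of 57 h to 45 h of -0.94 against -1.64. With TMM 202 of the 312 still met the rule, and the 110 others were all at least 2 times their 14 h level at 57 h or 88 h. In their place 154 sequences that on the deposited scale were at 0.5 times or less at a late time met it. On the TMM scale 275 of the 312 were lower at 57 h than at 45 h, and 148 were at 0.5 times or less, where the share over all sequences was 24.4%.

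**Figure D5:**
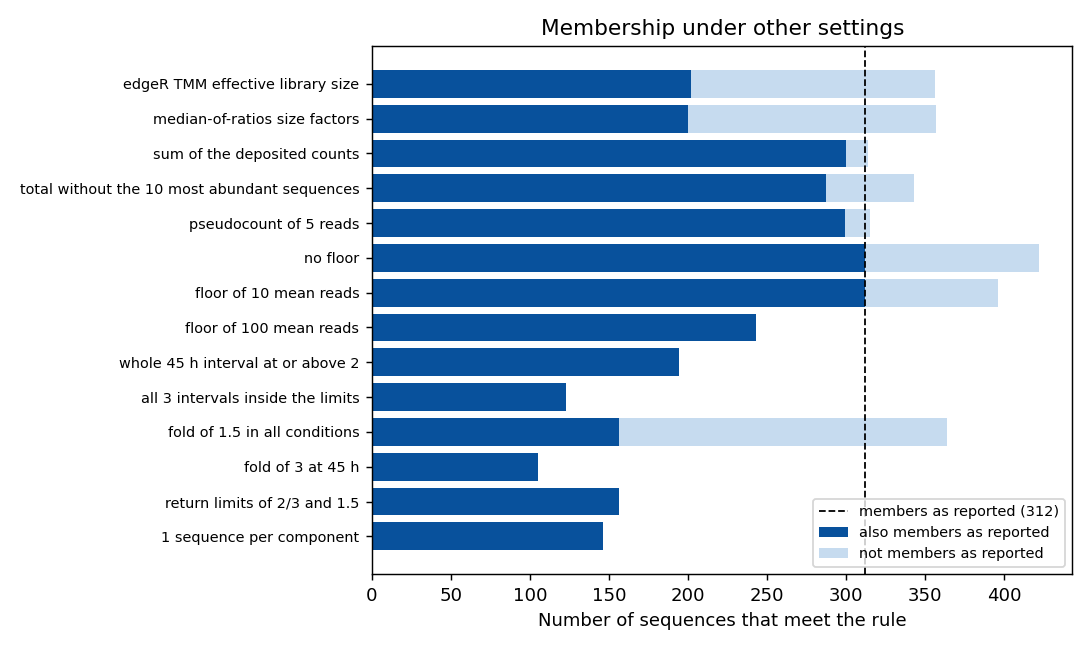
Number of sequences that met the rule under 14 other settings (horizontal bars), divided into those that are members as reported (dark) and others (pale), with the reported 312 as a dashed line. With TMM or median-of-ratios scaling the totals of 356 and 357 are near 312, but 202 and 200 of them are members as reported.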

How the data were processed

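The deposited files hold, per the file headers, a read count, the stated library total, the length and the RPKM of each of 14905 assembled sequences in each of 4 libraries. Per the submitters' processing notes, BWA was among the tools, with no version stated. Neither the assembly it aligned to, nor filters, strand use or the handling of multiply matching reads, is given in the sources used here. The RPKM that the authors deposited matched the value recomputed from their own columns to within 3.8e-11. Summed counts were 1.27 to 1.36 times the stated totals, so some reads may be counted more than once. The intervals of the read shares, which add variants together, are then too narrow. Those of a single sequence are too narrow only where a read was counted repeatedly on that sequence, which is not stated.

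Groups are the labelled culture times, each with 1 library, so no test was run. Ratios are of deposited RPKM, with no pseudocount. Their 95% intervals are exact conditional binomial (Clopper-Pearson) intervals of the counts. The rule and the interval were tried on simulated independent counts with a planted 45 h rise. That rise was of 4 times, in sequences with at least 2 times the read minimum. Smaller rises, and rises at lower counts, were not tried. The simulation held no late shift of the typical sequence and no reads shared by variants, so it does not bear on those features. The 4 identifiers printed are the 2 members with the highest ratio of 45 h to 14 h and, outside their components, the 2 whose 57 h level was the smallest part of the 45 h level, 1 per component. The components shown were picked after their values were seen. The members and settings were chosen with earlier results of these data known. Scaling factors came from edgeR 4.0.16 in R 4.3.3. Everything else ran in Python 3.11.15 with pandas 2.3.3, scipy 1.17.1 and numpy 2.4.6, and figures used matplotlib 3.10.9.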

Additional observations from a re-analysis of the deposited data

How the results depend on the processing

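Of 58 values under other settings, 43 stayed within set limits. These were 1.5 times the reported count and, for a named sequence, its counting interval. For a median it was the typical reach of a single member's interval to either side, 0.24 to 0.32 as log2. That is not the counting error of a median, which could change sign inside it. Without the 10 most abundant sequences in the total, the log2 medians to 14 h were 0.03 (57 h) and 0.18 (88 h). A count within its limit can hold other sequences, as with TMM, where 202 of 356 were members as reported. The number of members was 194 when the whole interval of the 45 h ratio had to reach 2. It was 123 when all 3 intervals had to lie inside the limits. With a fold of 3 at 45 h it was 105, and with return limits of 1.5-fold it was 156. With 1 sequence per component, the one of most reads among members and others, it was 146. By construction these settings admit fewer sequences. Between 243 and 422 met the rule under the other 9 settings. The median log2 ratio of the members passed its limit under 2 scalings, TMM and median-of-ratios factors. With these it was 0.56 and 0.57 for 57 h to 14 h, against -0.14 as reported. For 88 h to 14 h it was 0.75 and 0.76, against -0.02. For 57 h to 45 h it was -0.94 with each, against -1.64. These scalings centre the typical sequence at no change. As log2, 57 h to 45 h came to -3.08 for comp756_c1_seq1 and -2.48 for comp3184_c0_seq2 with either. Leaving out a library would remove its time point. No paired analysis was possible because there is a single library at every time. Depth limits the members with few reads, whose lowest count was 23 reads, at 57 h and at 88 h.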
